A study of Sus scrofa with 2 samples.

Results

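The 10 genes described here belong to the contractile apparatus of heart muscle and were followed through the cell classes of the pig left ventricle: MYH7, MYL2, MYL3, MYBPC3, ACTC1, TNNT2, TNNI3, LDB3, CMYA5 and NEBL. They were taken by symbol from a fixed list, and all 10 of them were found in both count matrices, which hold 31908 genes each. Of the 10, 7 are compact, with annotated spans of 5.35 to 22.1 kb, and 3 are long, with spans of 61.3 to 355 kb. In cardiomyocyte-like nuclei none of the members was called higher and 2 were called lower in the transgenic library, against 25.6% and 8.77% of all genes. In 7 other classes 8 or 9 of the 10 were called higher in that library, against 12.3 to 20.5% of all genes. When no nuclei were set aside for cardiomyocyte markers, 6 to 9 were, and the share of all genes was not computed. In those 7 classes of the transgenic library, the light and heavy chains of myosin stood above their level in its cardiomyocyte-like nuclei. Those classes were shallower. In nuclei of like depth, MYH7 stood higher in cardiomyocyte-like than in fibroblast-like, vascular endothelial-like and macrophage-like nuclei of that library.

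The sarcomere is the repeating unit of striated muscle, in which myosin of the thick filament pulls on actin of the thin filament. Calcium acts through the troponin complex on the thin filament, and the Z-disc anchors the thin filaments of neighbouring units. Cardiomyocytes are the cells that build it in the ventricle, where the transcripts of these genes are among the most abundant messages. In nuclei, a sequencing count can come from unspliced RNA made in that nucleus or from finished message.

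Nuclei were isolated on an iodixanol gradient from frozen myocardium (free wall of the left ventricle) of Bama pigs, a miniature breed, after 12 months of a diet high in fat and sucrose in both groups. One library was made from wild-type tissue (WT). The other came from triple-transgenic tissue (TG) that carries PNPLA3I148M, GIPRdn and hIAPP, which are a variant lipase, a dominant-negative incretin receptor and human islet amyloid peptide. The labels do not give promoters, ages or the number of animals behind a library. With 1 library per genotype there is no replicate check and no test, so every difference is between these libraries. All intervals are 95% intervals and cover counting error only.

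The WT library held 127126477 unique molecular identifiers (UMIs, counted RNA molecules) and the TG library 89324966. After filters 16725 WT and 14939 TG nuclei remained, with median depths of 5442 and 3937 UMIs. The libraries shared 81 cell barcodes. Levels are UMIs of a gene per 1000000 nuclear-encoded UMIs (CPM), summed over the nuclei of a class. A set of 10 cardiomyocyte markers held RYR2 and none of the sarcomere genes listed for this report. Their sum was 47960 CPM in WT and 39709 CPM in TG cardiomyocyte-like nuclei, against 623 and 1423 CPM in fibroblast-like nuclei. The cardiomyocyte-like class held 6776 WT and 5307 TG nuclei, mostly in different clusters: clusters 0 and 1 held 4577 and 2022 of the WT nuclei, and clusters 22 and 23 held 2860 and 2249 of the TG nuclei. One gene without a symbol took 6.37% of cardiomyocyte UMIs in WT and 13.9% in TG, so each level in TG is a share of a different whole.

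The thick filament members lie on chromosome 7 (MYH7, 75650841 to 75672908), 14 (MYL2, 32205953 to 32213848), 13 (MYL3, 29730271 to 29735616) and 2 (MYBPC3, 15247679 to 15269714). Of the thin filament members, ACTC1 lies on chromosome 1 (136281119 to 136286551), TNNT2 on chromosome 10 (23749528 to 23759696) and TNNI3 on chromosome 6 (59366828 to 59377490). The long members are LDB3 on chromosome 14 (87660961 to 87722249), CMYA5 on chromosome 2 (88391104 to 88506336) and NEBL on chromosome 10 (53602929 to 53957869). Coordinates are RefSeq's on Sscrofa11.1, for genes matched by symbol. The row called MYH7 in the matrices carries an Ensembl identifier that a reference table names MYH6, and no other row bears either name. The 2 cardiac myosin heavy chains therefore cannot be told apart, and the row is called MYH7 as in the matrices. ACTC1 and the skeletal actin ACTA1 encode near-identical proteins. Whether reads were split between these genes was not tested.

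**Figure D1:**
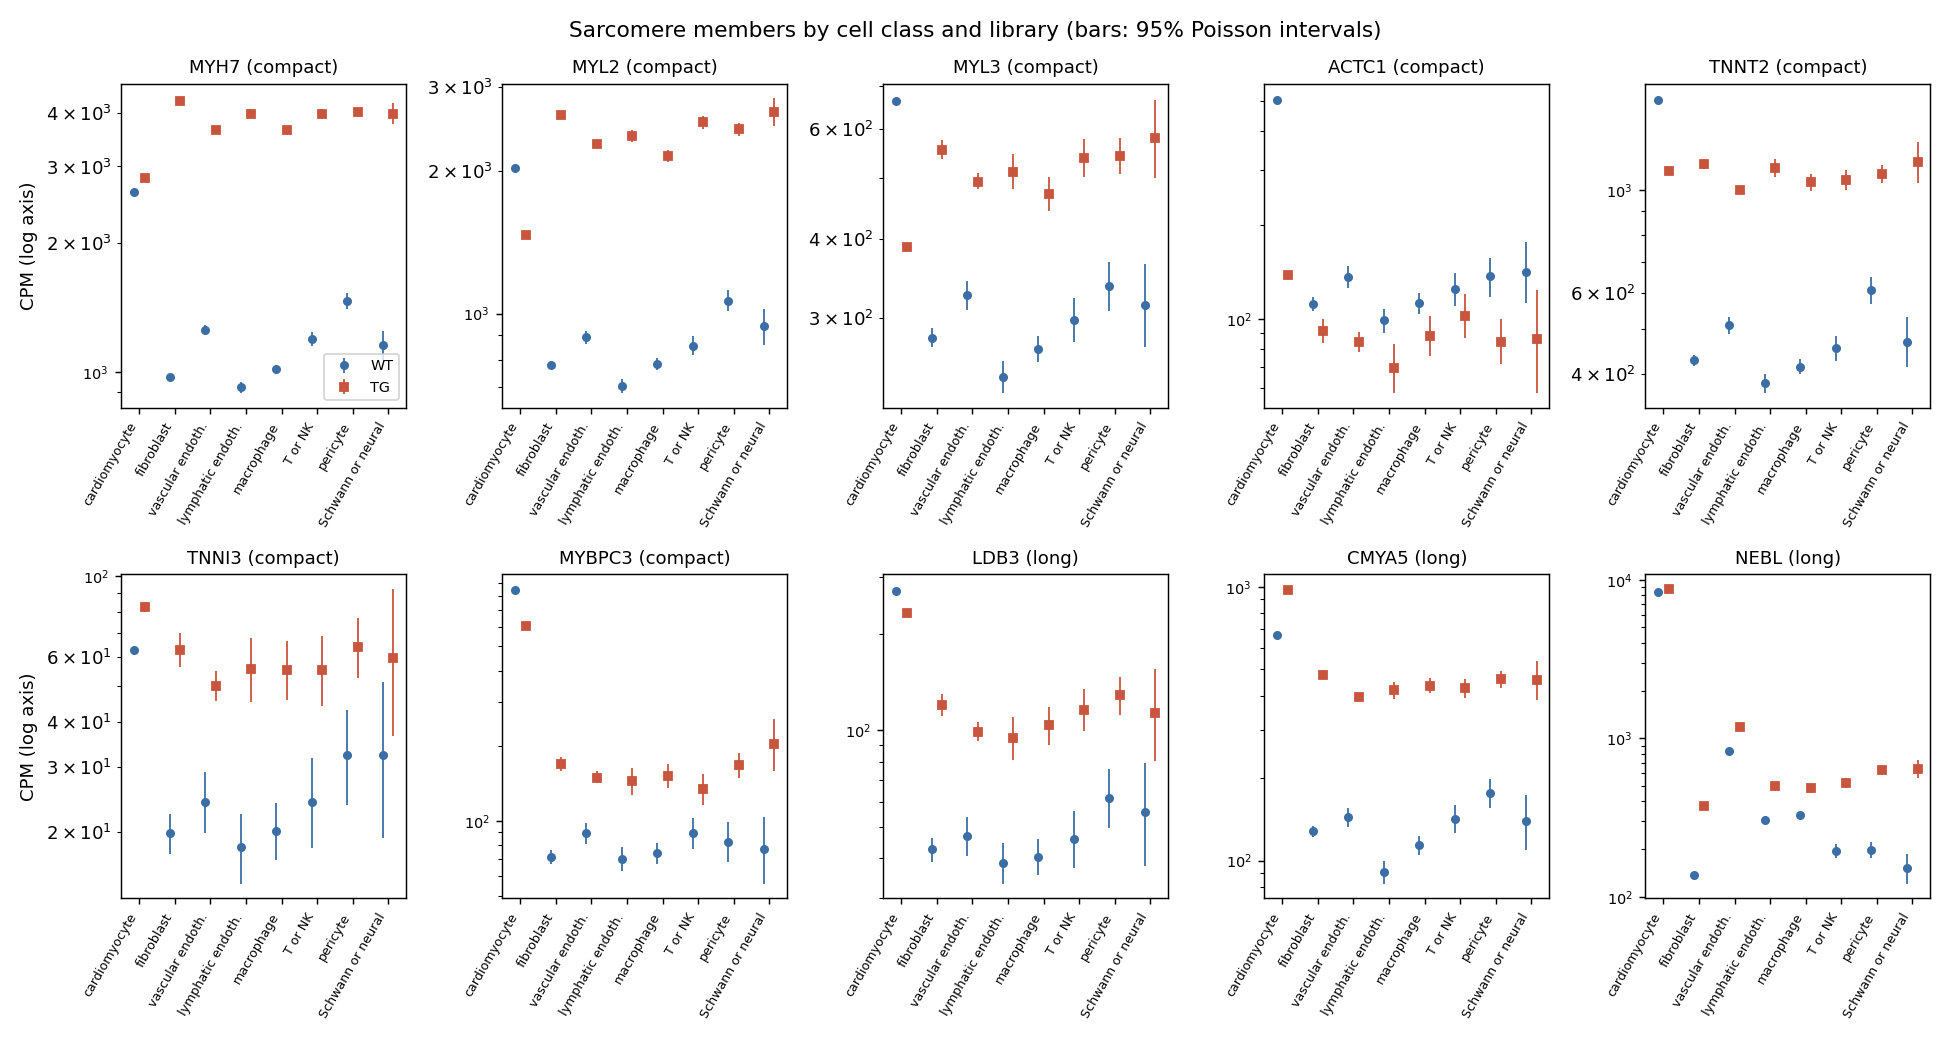
Level of each member in each cell class (CPM, log axis with its own range in each panel) in WT (circles) and TG (squares); bars are 95% Poisson intervals. MYH7 ran from 924 to 1464 CPM outside cardiomyocytes in WT and from 3638 to 4259 CPM in TG, and ACTC1 is the member whose TG points lie below its WT points in every class.

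In cardiomyocyte-like nuclei the thick filament genes split. MYH7, the motor that splits ATP, stood at 2621 CPM (WT) and 2816 CPM (TG), a ratio of 1.07 (1.07 to 1.08). MYL2, the regulatory light chain in the ventricle, stood at 2029 and 1466 CPM, a ratio of 0.723 (0.716 to 0.729). MYL3, the essential light chain, measured 664 and 389 CPM and was 1.71-fold lower in TG (1.68 to 1.74). The light chains were thus both lower in TG, while the heavy chain was nearly level. MYBPC3, myosin-binding protein C, which brakes the cross-bridges, measured 842 and 606 CPM, a ratio of 0.719.

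ACTC1, the cardiac actin of the thin filament, stood furthest apart of the members. Its level was 505 CPM (WT) and 138 CPM (TG) in cardiomyocyte-like nuclei, 3.65-fold lower (3.55 to 3.75). After thinning to 1000 UMIs per nucleus, 36.2% of WT and 12.1% of TG cardiomyocyte-like nuclei held an ACTC1 UMI; unthinned, the shares were 85.3% and 42.4%. TNNT2, the troponin that binds tropomyosin, measured 1573 and 1103 CPM, a ratio of 0.701. TNNI3, the inhibitory troponin of the adult heart, measured 62.8 and 82.5 CPM, a ratio of 1.31 (1.26 to 1.37).

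The 3 long members did not share a direction. LDB3, a Z-disc protein also called Cypher, stood at 272 CPM (WT) and 233 CPM (TG), a ratio of 0.855. CMYA5, myospryn, a large protein near the Z-disc, measured 669 and 972 CPM, a ratio of 1.45 (1.43 to 1.47). NEBL, nebulette, which ties actin to the Z-disc, was nearly level at 8338 and 8707 CPM, a ratio of 1.04 (log2 0.06, and -0.00 with TMM scaling).

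Called here means at least 1.5-fold apart with an interval that leaves out 1. Of the 10 members, 0 were called higher in TG cardiomyocyte-like nuclei, where 25.6% of 18883 genes were, and 2 were called lower (MYL3 and ACTC1), where 8.77% of genes were. The median log2 ratio was -0.35 over the members and 0.08 over all genes. With the most abundant gene left out of the total, CMYA5 was past the threshold too, at a log2 ratio of 0.66.

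Depth and mitochondrial share moved with these levels. In cardiomyocyte-like nuclei with at most 0.2% mitochondrial UMIs (3737 WT and 1555 TG), MYL2 was at 1792 and 1045 CPM, 1.72-fold lower in TG. TNNT2 in these nuclei was at 1434 and 884 CPM, 1.62-fold lower. MYL3 was 1.91-fold and ACTC1 3.73-fold lower. In those nuclei 4 members were thus at least 1.5 times lower, against 2 in the whole class. The share of all genes at least 1.5 times lower was not computed for those nuclei. This view was chosen after the values were seen. MYH7 had a ratio of 0.940 there, on the other side of 1. In nuclei over 1% (455 and 274), MYL2 was at 4474 and 4492 CPM and MYH7 at 6793 and 8829 CPM. The ACTC1 difference was present in each bin of depth, at 3.71-fold from 2000 to below 4000 UMIs, 4.15-fold from there to below 8000, and 3.68-fold from 8000.

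**Figure D2:**
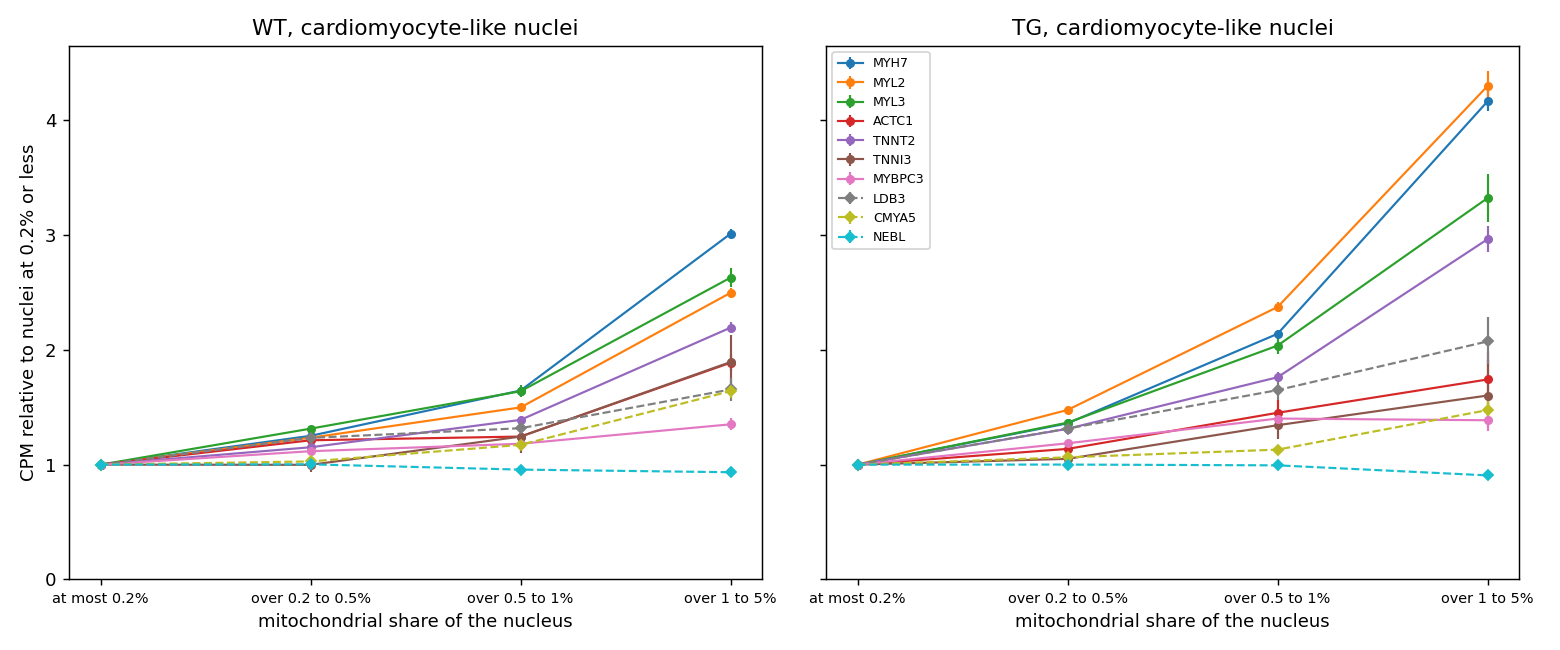
CPM of each member in cardiomyocyte-like nuclei by the nucleus' mitochondrial share of UMIs (4 bins), relative to nuclei at 0.2% or less, in WT (left) and TG (right); solid lines are compact members, dashed lines long ones, bars 95% Poisson intervals of each level. MYH7 ran from 2256 to 6793 CPM in WT and from 2120 to 8829 CPM in TG, while NEBL ran from 8371 to 7817 and from 8727 to 7910 CPM.

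The compact members varied with the nucleus' mitochondrial share more than NEBL did. MYH7 was higher in each next bin of mitochondrial share in both libraries, whereas NEBL was nearly flat. LDB3 went from 249 to 412 CPM and CMYA5 from 645 to 1058 CPM from the lowest to the highest bin in WT. Compact and long members did not separate cleanly: in TG, LDB3 went from 191 to 396 CPM, while compact ACTC1 went from 124 to 216 CPM and TNNI3 from 77.4 to 124 CPM. MYBPC3, compact by span, moved less than the other thick filament genes, from 803 to 1085 CPM in WT. By depth, the 7 compact members summed to 20941 CPM in WT cardiomyocyte-like nuclei under 2000 UMIs and to 7763 CPM in those with 8000 or more. The 3 long members, whose sum is mostly NEBL, came to 7886 and 9287 CPM in the same nuclei.

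**Figure D3:**
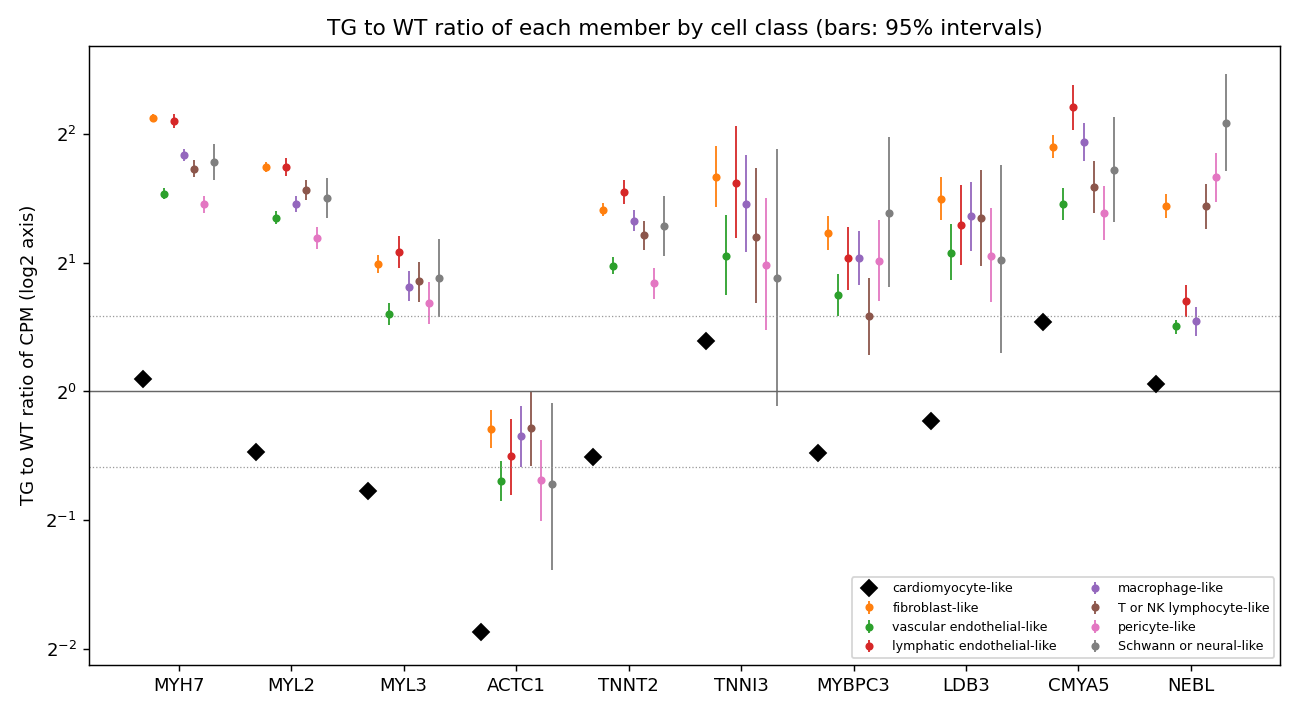
TG to WT ratio of CPM of each member (log2 axis) in cardiomyocyte-like nuclei (black diamonds) and 7 other classes (points); bars are 95% intervals of counting error, and dotted lines mark 1.5-fold. MYH7 is at 1.07 in cardiomyocyte-like and 4.37 in fibroblast-like nuclei, and ACTC1 is below 1 in all 8 classes.

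Outside cardiomyocytes the members had UMIs in every class, and MYH7 differed more between the libraries than between the classes. In fibroblast-like nuclei, from the cells that form matrix (3023 WT, 1953 TG), MYH7 stood at 974 CPM (WT) and 4259 CPM (TG), a ratio of 4.37 (4.28 to 4.47). MYL2 measured 780 and 2619 CPM, and MYL3 279 and 555 CPM, ratios of 3.36 and 1.99. TNNT2 measured 428 and 1138 CPM and TNNI3 19.8 and 62.9 CPM. ACTC1 was the exception, at 112 and 91.4 CPM, a ratio of 0.818 (0.738 to 0.906). The long members were also higher in TG: LDB3 at 42.6 and 120 CPM, CMYA5 at 128 and 478 CPM, and NEBL at 137 and 373 CPM. In all, 9 of 10 members were called higher in fibroblast-like nuclei, where 16.3% of genes were, and 0 lower, where 9.11% were. The median log2 ratio of the members was 1.47, and that of all genes 0.05. The mitochondrial share of UMIs in this class was 0.767% in WT and 1.04% in TG, and the cardiomyocyte markers were higher in TG too; their part in the result was not tested. The class was split by cluster, with 2687 WT nuclei in cluster 3 and 1863 TG nuclei in cluster 5 before nuclei were set aside.

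The direction of NEBL, and the difference in MYBPC3, rested on how fibroblast-like nuclei were chosen. Nuclei outside the cardiomyocyte-like class with over 0.3% of UMIs from TRDN, MLIP, FHOD3, RBM20 and CORIN were set aside, which took the fibroblast-like class from 3252 to 3023 WT nuclei and from 1994 to 1953 TG nuclei. With them kept, NEBL in fibroblast-like nuclei stood at 1361 CPM (WT) and 573 CPM (TG), lower in TG. MYBPC3 stood at 181 and 187 CPM with them, a log2 ratio of 0.05 against 1.23. With them 7 members were called higher, not 9, and 2 lower (NEBL and ACTC1), not 0. The shares of all genes called were not computed with these nuclei kept. MYH7 stood at 1163 and 4212 CPM with them, still higher in TG. The set-aside nuclei were chosen by long cardiomyocyte transcripts, so the choice itself lowers long members in the nuclei that remain.

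Between the other classes MYH7 varied little. In TG it was highest in fibroblast-like nuclei (4259 CPM) and lowest in vascular endothelial-like (3644 CPM) and macrophage-like nuclei (3638 CPM). Pericyte-like, Schwann or neural-like, lymphatic endothelial-like and T or NK lymphocyte-like nuclei stood between, at 3971 to 4005 CPM, with counting intervals that overlapped. Over the 7 classes the highest MYH7 level was 1.17 times the lowest in TG and 1.58 times in WT. Every TG level of MYH7 outside cardiomyocytes lay above every WT level there. The TG to WT ratios over the 7 classes ran from 2.74 to 4.37 for MYH7, 2.29 to 3.36 for MYL2 and 1.52 to 2.12 for MYL3, and reached up to 2.62 for MYBPC3. On the thin filament they ran from 1.79 to 2.93 for TNNT2, 1.84 to 3.18 for TNNI3 and 0.608 to 0.820 for ACTC1. Of the long members, LDB3 ran from 2.03 to 2.82, CMYA5 from 2.61 to 4.62 and NEBL from 1.42 to 4.24. ACTC1 is thus the member with ratios below 1 in all 7, although with at most 1% mitochondrial UMIs its log2 ratio in macrophage-like nuclei was 0.06 (-0.26 to 0.37).

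In the vascular endothelial-like class, from the lining of blood vessels, 8 members were called higher (background 12.3%) and ACTC1 was called lower (background 7.98%). In lymphatic endothelial-like nuclei 9 were called higher (background 12.5%) and 0 lower (8.33%). Macrophage-like nuclei, the resident phagocytes, had 8 higher (20.5%) and 0 lower (8.03%), and T or NK lymphocyte-like nuclei 8 higher (19.4%) and 0 lower (9.89%). Pericyte-like nuclei, from cells that wrap capillaries, had 9 higher (15.0%) and ACTC1 lower (8.07%). Schwann or neural-like nuclei, with 149 WT and 111 TG nuclei the smallest class compared, had 8 higher (13.5%) and ACTC1 lower (9.16%). These comparisons use the same pair of libraries and are not independent of each other. Members not called in either direction were NEBL in the vascular endothelial-like (833 and 1180 CPM) and macrophage-like classes (330 and 482 CPM), MYBPC3 in T or NK lymphocyte-like nuclei (89.3 and 134 CPM) and TNNI3 in Schwann or neural-like nuclei (32.4 and 59.7 CPM), beside ACTC1 where it is not named as lower. The ACTC1 calls in the vascular endothelial-like, pericyte-like and Schwann or neural-like classes were lost at a fold of 2, and each under at least 1 other filter.

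Smooth muscle-like nuclei could not be compared, with 196 WT and 9 TG nuclei. At a clustering resolution of 2, with 273 and 208 such nuclei, MYH7 was at 1069 and 3322 CPM and ACTC1 at 93.7 and 74.9 CPM.

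Set against cardiomyocyte-like nuclei of the same library, the members fell into an order. In WT, MYH7 outside cardiomyocytes was at 35.3 to 55.8% of its cardiomyocyte level, MYL2 at 34.7 to 52.5% and MYL3 at 36.5 to 50.7%. In TG these were 129 to 151%, 147 to 181% and 122 to 149%, above the cardiomyocyte level in all 7 classes. With at most 1% mitochondrial UMIs per nucleus, MYH7 (99.3%) and MYL3 (98.8%) stood just short of it in T or NK lymphocyte-like nuclei, and stood above it in the other 5 classes that gave a value. TNNT2 was above it in 3 of 7 TG classes. Fibroblast-like nuclei in TG held at least 1 MYH7 UMI in 93.9% of cases after thinning to 1000 UMIs, against 91.5% of cardiomyocyte-like nuclei; in WT the shares were 46.2% and 89.7%. Unthinned, the TG shares were 99.7% and 100%, at median depths of 2634 and 7662 UMIs. Fibroblasts are not known to build sarcomeres, and in TG the share with a MYH7 UMI did not set cardiomyocyte-like nuclei above them.

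In the nuclei that were kept, MYBPC3 and NEBL were the members held most closely to cardiomyocyte-like nuclei. MYBPC3 was at 8.33 to 10.6% of its cardiomyocyte level in WT and 22.1 to 33.5% in TG. NEBL was at 1.65 to 9.99% in WT and 4.29 to 13.6% in TG. With no nuclei set aside, MYBPC3 was at 17.1 to 29.8% in WT and 30.0 to 61.5% in TG, and NEBL at 14.5 to 27.3% and 6.59 to 44.0%. LDB3 and CMYA5 were intermediate, at 14.2 to 22.7% and 13.6 to 26.3% in WT and at 40.7 to 55.3% and 40.6 to 49.1% in TG. With at most 1% mitochondrial UMIs per nucleus, the median over compact members and classes went from 35.3% to 21.4% in WT and from 98.4% to 77.2% in TG. That over long members went from 15.6% to 9.28% and from 43.2% to 31.7%. With no nuclei set aside the medians were 44.7% in WT and 93.8% in TG for compact members and 27.7% and 52.3% for long ones.

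**Figure D4:**
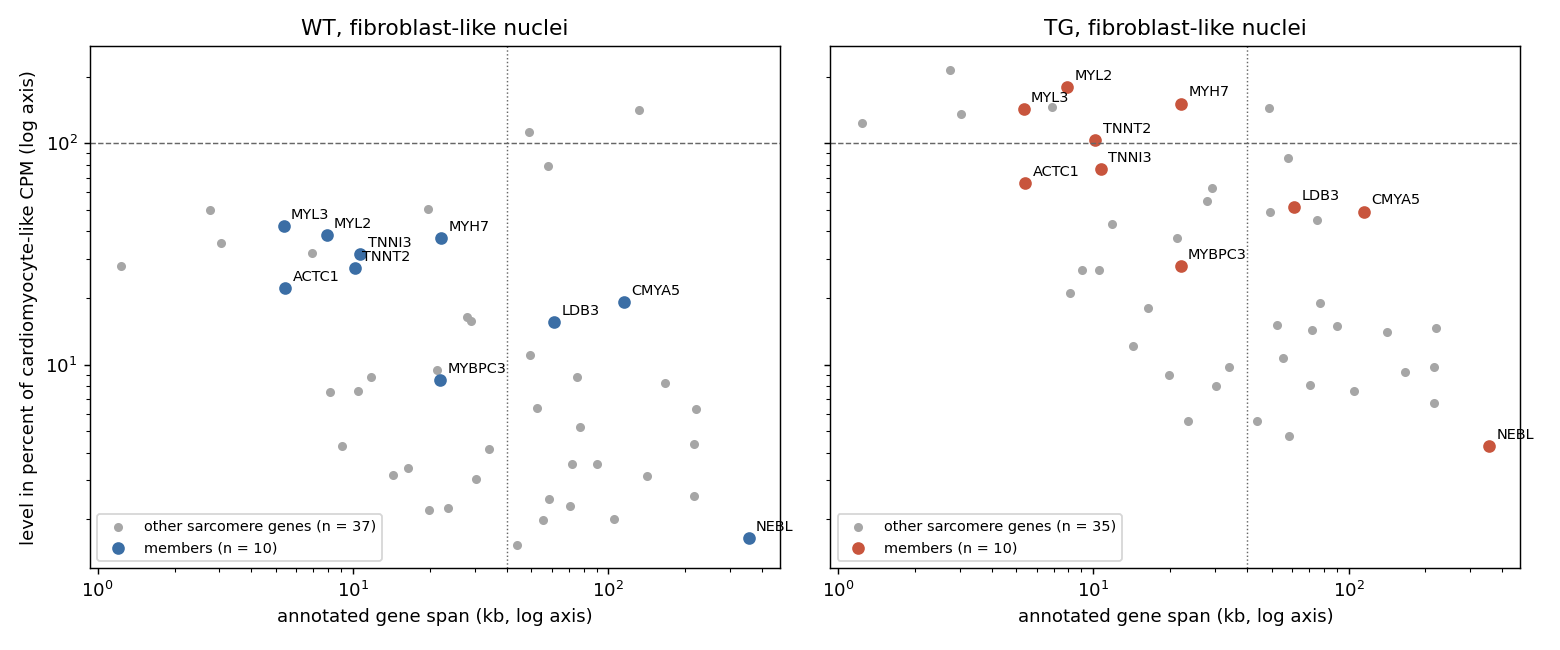
Level in fibroblast-like nuclei in percent of the cardiomyocyte-like level (log axis) against annotated gene span (kb, log axis) for the members (coloured, named) and other sarcomere genes (grey), in WT (left) and TG (right); the dashed line is 100% and the dotted line 40 kb. MYL2 is at 38.4% in WT and 179% in TG, and NEBL, the longest, at 1.65% and 4.29%.

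Short span went with a high level outside cardiomyocytes, in nuclei left after those rich in long cardiomyocyte transcripts had been set aside. Across the 10 members, log span and log percent of the cardiomyocyte level had a Pearson r of -0.78 in WT and -0.79 in TG fibroblast-like nuclei (Spearman -0.71 and -0.64). With no nuclei set aside, r was -0.76 and -0.79, although NEBL then stood at 16.3% in WT rather than 1.65%. These are descriptions across genes of the same libraries, and genes are not independent replicates. Over 47 sarcomere genes in WT and 45 in TG with enough counts the r was -0.41 and -0.63. Genes under 40 kb had a median of 15.8% in WT and 48.9% in TG, and genes from 40 kb had 4.82% and 14.4%. MYBPC3, with 22.0 kb against 22.1 kb for MYH7, was at 8.53% where MYH7 was at 37.2% in WT fibroblast-like nuclei, so span alone did not order the members.

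**Figure D5:**
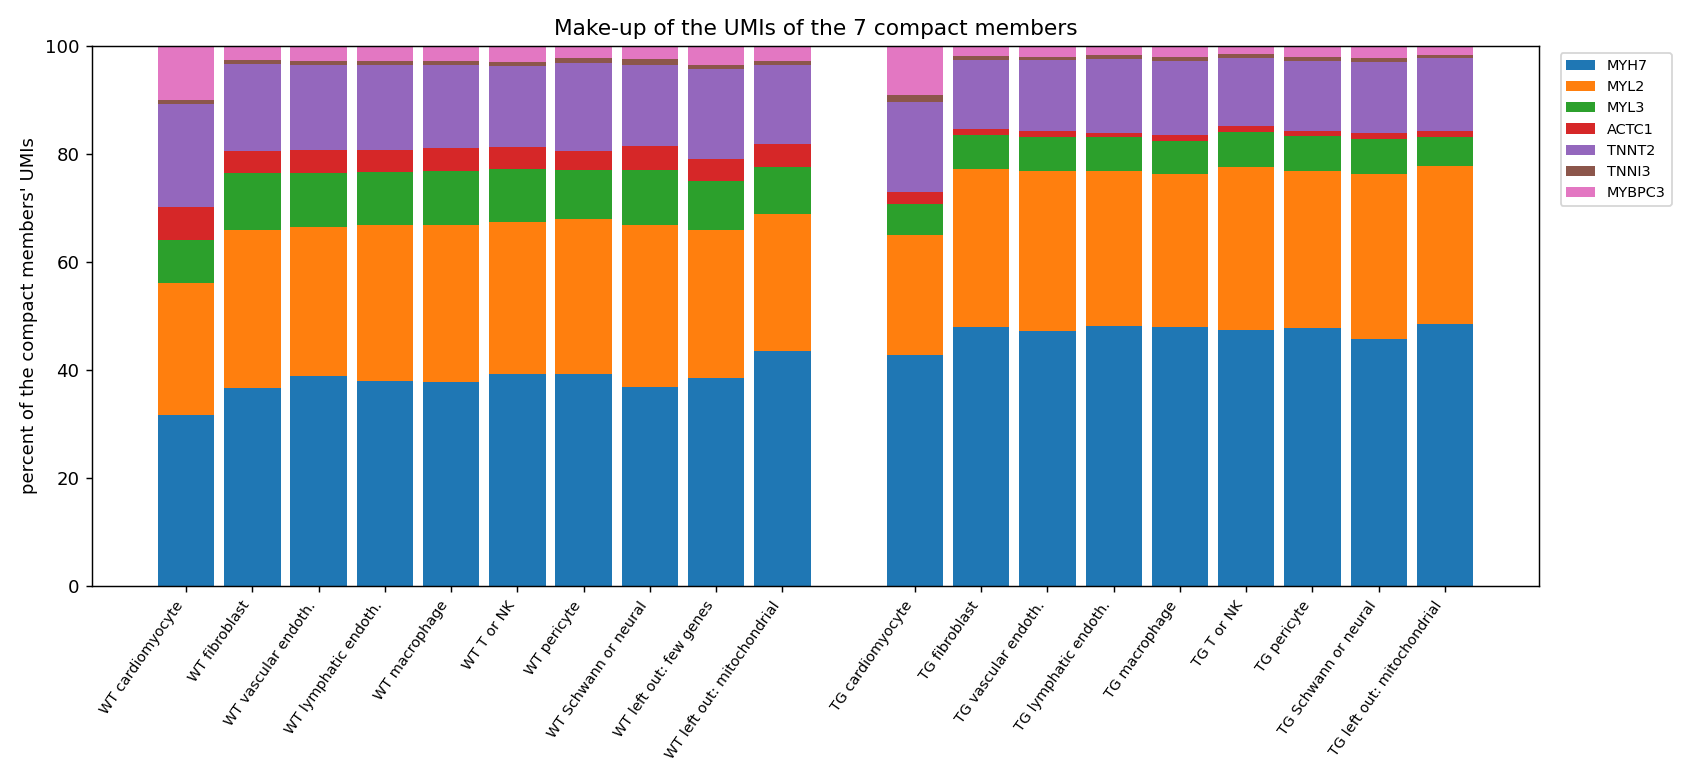
Share of each compact member in the summed UMIs of the 7 compact members (percent), by cell class and for barcodes left out by the filters, in WT (left) and TG (right). Classes are shown after nuclei rich in cardiomyocyte markers were set aside. Outside cardiomyocytes MYBPC3 takes 2.21 to 2.94% in WT, against 10.2% in cardiomyocyte-like nuclei.

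In the nuclei that were kept, the compact members stood in nearly the same proportions in the 7 classes outside cardiomyocytes. In WT, MYH7 took 36.6 to 39.3% of their UMIs in the 7 classes, ACTC1 3.67 to 4.54% and MYBPC3 2.21 to 2.94%. In TG these shares were 45.7 to 48.2%, 0.848 to 1.22% and 1.60 to 2.33%. Cardiomyocyte-like nuclei stood apart from them, with MYH7 at 31.6% in WT and 42.7% in TG, ACTC1 at 6.08% and 2.09%, and MYBPC3 at 10.2% and 9.18%. The lower ACTC1 share in TG was thus seen inside and outside the cardiomyocyte-like class. Shares outside cardiomyocytes depend on the nuclei set aside, and were not computed without that step. With none set aside, MYBPC3 in WT fibroblast-like nuclei stood at 181 rather than 71.9 CPM, and MYH7 at 1163 rather than 974 CPM.

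Barcodes left out by the filters carried more MYH7 than any class did. The 943 WT barcodes with under 500 genes held MYH7 at 6978 CPM. The 583 WT and 60 TG barcodes with at least 500 genes but over 5% mitochondrial UMIs held it at 26036 and 20426 CPM. The same barcodes held NEBL at 2784 and 1483 CPM, below its cardiomyocyte level. In the WT barcodes with under 500 genes, MYH7 at 38.6% and ACTC1 at 3.97% of compact UMIs lay within the ranges of kept WT nuclei outside cardiomyocytes. MYBPC3 at 3.53% (3.22 to 3.86) lay above their 2.21 to 2.94%. MYL2 (27.3%) and TNNT2 (16.7%) lay just outside their ranges. In the TG barcodes with over 5%, MYH7, ACTC1 and MYBPC3 were at 48.6%, 1.03% and 1.69%. The WT barcodes with over 5% differed from the WT classes in MYH7, at 43.5% (43.2 to 43.8), and MYL2, at 25.3%. In the classes these were 36.6 to 39.3% and 27.6 to 30.0%. ACTC1 (4.20%) and MYBPC3 (2.74%) in these barcodes lay within the class ranges. Empty droplets were not used here, so RNA free in the suspension was not measured directly and its part in these levels was not tested.

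In the shallower nuclei of a class the compact members took a larger part of the UMIs. WT fibroblast-like nuclei under 2000 UMIs held 7.31 compact UMIs each and those from 4000 to below 8000 held 12.5, at median depths of 1430 and 5184 UMIs. Their summed level was 5257 CPM in the first and 2327 CPM in the second. Above that it was nearly level: the 120 WT nuclei with 8000 or more UMIs held 22.7 compact UMIs each, or 2300 CPM. In WT macrophage-like nuclei the level went from 2303 to 2596 CPM between these bins. TG fibroblast-like nuclei from 4000 to below 8000 UMIs held 30.5 compact UMIs each, at a median depth of 4486, so the difference between libraries was present within this depth range. No TG barcode was under 1972 UMIs, whereas WT barcodes went down to 500.

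In the nuclei that were kept, NEBL was the member that varied most between the classes outside cardiomyocytes, with its highest class at 6.08 times its lowest in WT and 3.16 times in TG. It was highest in vascular endothelial-like nuclei, at 833 CPM in WT (807 to 860) and 1180 CPM in TG (1158 to 1203), against 137 and 373 CPM in fibroblast-like nuclei. This ranking holds after nuclei were set aside. With none set aside, vascular endothelial-like nuclei stood at 1537 CPM in WT, below pericyte-like (2274 CPM), macrophage-like (2032 CPM), Schwann or neural-like (1971 CPM) and T or NK lymphocyte-like nuclei (1747 CPM). In TG they then stood at 1723 CPM, below each other class but the fibroblast-like one, with pericyte-like nuclei highest at 3831 CPM. Within the class it was uneven. In cluster 20, led by GJA5, a gap junction gene known from arterial endothelium, NEBL stood at 3007 CPM (108 WT nuclei, 2836 to 3186) and 2485 CPM (733 TG nuclei, 2422 to 2549). Cluster 25, also with GJA5 among its leading genes, held NEBL at 893 CPM (86 WT nuclei, 803 to 990) and had 0 TG nuclei. In cluster 7 NEBL measured 498 and 798 CPM, and in cluster 9 it measured 680 and 548 CPM. RYR2, the calcium release channel of cardiomyocytes, was at 193 and 477 CPM in cluster 20. In cluster 7 it was at 384 and 496 CPM, with overlapping intervals in TG. MYH7 was at 1318 and 3387 CPM in cluster 20 against 1662 and 4156 CPM in cluster 7. In cluster 9, RYR2 was at 419 and 372 CPM and MYH7 at 936 and 2980 CPM. NEBL was not among the genes used to cluster, and cluster 20 was singled out after its values were seen. TG held more nuclei of cluster 20, and within clusters 9 and 20 NEBL was lower in TG, although it was higher in TG in the class as a whole.

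After vascular endothelium, NEBL in WT came next in macrophage-like (330 CPM) and lymphatic endothelial-like nuclei (307 CPM), whose intervals overlapped. Pericyte-like (198 CPM) and T or NK lymphocyte-like nuclei (194 CPM) followed, and Schwann or neural-like (151 CPM) and fibroblast-like nuclei (137 CPM) were lowest, again with overlapping intervals within each pair. In TG the order was Schwann or neural-like (642 CPM) and pericyte-like (627 CPM), then T or NK lymphocyte-like (524 CPM), lymphatic endothelial-like (499 CPM) and macrophage-like (482 CPM), then fibroblast-like (373 CPM). The classes below vascular endothelium thus stood in another order in TG than in WT.

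Among the other genes of the sarcomere, 56 of 61 listed were in the matrices, and TTN and MYH6 were not matched. In cardiomyocyte-like nuclei 54 were measured, of which 7 were called higher and 8 lower in TG, against 25.6% and 8.77% of all genes. The other 39 were not called, and the median of the log2 ratios was -0.18. The lowest were ACTA1 (1446 and 794 CPM), the actin of skeletal muscle, CSRP3 (577 and 318 CPM), a Z-disc stress sensor, TRIM55 (954 and 534 CPM), a ubiquitin ligase of muscle, and ACTN2 (2950 and 1727 CPM), the Z-disc cross-linker. The highest were PDLIM3 (25.1 CPM in TG, 1.94 times WT), TNNT1 (16.5 and 29.2 CPM), TPM3 (20.5 and 32.8 CPM) and FHL1 (217 and 300 CPM), of which FHL1 was not called. TNNI1, the fetal inhibitory troponin, had 4 UMIs in WT and 3 in TG cardiomyocyte-like nuclei.

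In fibroblast-like nuclei 38 of 46 measured genes of that list were called higher, 8 were not called and 0 were lower, against 16.3% higher and 9.11% lower over all genes; the log2 ratios had a median of 1.42. The 4 highest were ANKRD1 (86.1 and 548 CPM), a stretch-responsive titin partner, TNNT1 (4.30 and 31.0 CPM), XIRP2 (11.6 and 71.6 CPM) and TCAP (151 and 754 CPM), the titin cap. The 4 lowest were OBSL1, CAPZB, TPM3 and CAPZA2, with ratios of 0.754 to 1.13, and none was called. CAPZA2 and CAPZB are subunits of the actin capping protein, which most cells make.

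Heart muscle transcripts outside these lists of sarcomere genes were counted beside them. The 6 compact ones were all called higher in TG fibroblast-like nuclei, such as CRYAB, a chaperone, at 89.2 and 511 CPM, and FABP3, a fatty acid carrier, at 56.6 and 226 CPM. In cardiomyocyte-like nuclei CKM, the muscle creatine kinase, was at 733 and 331 CPM and was the only one of the 6 called. The 5 long ones, such as CTNNA3 at 76.5 and 197 CPM, were all called higher in fibroblast-like nuclei. TRDN, MLIP and FHOD3 among them also served to set nuclei aside, so their levels there depend on that choice.

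The genes whose levels over 16 points (8 classes in 2 libraries) were most like the mean of the compact members were CKMT2 (Pearson r 0.981), MDH1, COX5A, a gene without a symbol, SLC25A4 and PFKM (r 0.968). For the long members they were a gene without a symbol (r 0.981), KLHL31, ART3, MYOT, RAMP1 and TECRL (r 0.975). Log2(CPM + 1) was compared among 11404 genes, and the points of a library share its depth. MYBPC3 was more like the long mean (r 0.968) than the compact mean it is part of (0.873). ACTC1 was least like its own group (r 0.214), and TNNT2 most (0.989).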

How the data were processed

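Single-nucleus RNA was counted in 1 WT and 1 TG library. The deposited values are counts of UMIs, made by the authors with Cell Ranger 3.1.0 and Seurat 3.1.1 on Sscrofa11.1 per the submitters' processing notes; per the file headers it was Cell Ranger 5.0.0, a difference that was not resolved. Whether intronic reads were counted is not given in the sources used here. Barcodes with under 500 genes, or with over 5% of UMIs in 13 mitochondrial genes, were dropped. Clustering of the joined libraries used scanpy 1.11.5 in Python 3.11.15, with 2000 variable genes (sarcomere genes left out), 30 components, 15 neighbours and Leiden resolution 1. Naming a cluster took 60% of a class's markers, 3 or more, at 20 CPM or higher and 1 log2 unit above the lower quartile of all clusters. It counted as mixed, and was set aside, when its score exceeded that of the best unrelated class by less than 1.5. The same held when an unrelated class had more markers among the cluster's leading genes than its own class had. Mixed clusters held 6.25% of WT and 12.0% of TG nuclei. No doublet caller was used; nuclei of other classes over 0.3% of cardiomyocyte marker UMIs were set aside (666 WT, 717 TG). These thresholds were set after seeing the clusters.

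Levels carry exact Poisson intervals, shares Clopper-Pearson intervals and ratios conditional binomial ones (scipy 1.17.1), at 95%. A member was measured with at least 20 UMIs. The ratio call was run on simulated Poisson counts without spread between nuclei or libraries, so that run cannot speak for such spread here. The members and lists were chosen with earlier results of these data known. All members are described, and of the other sarcomere genes the 4 highest and 4 lowest by the interval bound nearest to 1, with at least 20 CPM. Alternatives changed filters, clustering, scaling (TMM from edgeR 4.0.16 in R 4.3.3), weighting, depth and thresholds.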

Additional observations from a re-analysis of the deposited data

Results flagged for a closer look

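MYL3, the essential light chain, was called lower in TG cardiomyocyte-like nuclei, with a log2 ratio of -0.77, and higher in TG in each of the 7 other classes, with log2 ratios of 0.60 to 1.08. It was the only member called in opposite directions in this way, which rested on the 1.5-fold threshold. MYL2, TNNT2, MYBPC3 and LDB3 were also lower in TG cardiomyocyte-like nuclei, with log2 ratios of -0.47, -0.51, -0.47 and -0.23, short of that threshold. Each had log2 ratios above 0 in all 7 other classes. MYL2 stood at 1.75 in fibroblast-like nuclei, against 0.99 for MYL3. In cardiomyocyte-like nuclei with at most 0.2% mitochondrial UMIs, MYL2 was 1.72-fold and TNNT2 1.62-fold lower in TG. The calls of MYL3 did not all hold. At a fold of 2 its ratio in cardiomyocyte-like nuclei (log2 -0.77) fell short. So did its ratios in the other classes, save lymphatic endothelial-like nuclei (1.08). With no nuclei set aside for cardiomyocyte markers, MYL3 was under 1.5-fold in pericyte-like (log2 0.24), T or NK lymphocyte-like (0.35), macrophage-like (0.37), vascular endothelial-like (0.45) and Schwann or neural-like nuclei (0.56). With mixed clusters counted in their best class it was at 0.42 in vascular endothelial-like nuclei, and with each nucleus weighted equally at 0.49 in Schwann or neural-like and 0.50 in pericyte-like nuclei. It was above 0 in all 7 classes under each alternative that gave a value. The difference between classes was not tested, since each genotype has 1 library.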

How the results depend on the processing

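Of 286 counts of called members recomputed under 18 alternatives, 266 stayed within 1.5 times. The shares of all genes called were computed for the main setting only, so the counts below have none beside them. Members lower in TG numbered 0, against 1, in pericyte-like nuclei with at least 1000 genes, at most 1% mitochondrial UMIs, at least 2000 UMIs, Leiden resolution 2 or a fold of 2; in vascular endothelial-like nuclei at most 1% mitochondrial UMIs or a fold of 2; and in Schwann or neural-like nuclei with at least 2000 UMIs, thinning or a fold of 2. They numbered 1, against 0, in macrophage-like nuclei weighted equally or thinned and in lymphatic endothelial-like nuclei thinned. In cardiomyocyte-like nuclei 1 was higher with the most abundant gene left out, and 1 was lower at a fold of 2. At a fold of 2, 5 were higher in vascular endothelial-like nuclei. With no nucleus set aside by marker share, an alternative added after seeing the data, 2 were lower in fibroblast-like nuclei and 1 each in lymphatic endothelial-like, macrophage-like and T or NK lymphocyte-like nuclei. There NEBL had a log2 ratio of -1.25 in fibroblast-like nuclei, reversed from 1.44; that alternative adds nuclei rich in long cardiomyocyte transcripts. It was the 1 reversal of a called ratio among 1430 recomputed ratios, of which 1142 stayed within the counting interval. Both numbers include alternatives that changed only the fold or the minimum UMIs of a gene for a call. Those leave each ratio as it was by construction. ACTC1 in macrophage-like nuclei, not called, went from -0.35 to 0.06 with at most 1% mitochondrial UMIs. TMM factors put NEBL in cardiomyocyte-like nuclei at -0.00 and MYH7 at 0.04. No paired analysis was possible because each genotype has 1 library, and no replicate could be left out. Smooth muscle-like nuclei gave no value, since TG held 9. Low counts limit TNNI3 most, with a ratio interval of 0.925 to 3.69 in Schwann or neural-like nuclei.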
